A study of Mus musculus with 3 samples.

Results

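The genes described here are 10 cytosolic and mitochondrial heat shock genes, whose transcripts were sequenced in a mouse melanoma line, B16F10, with and without knockdown of Med23. They were taken by symbol from a table of 12852 genes: Hspa1b, Hspa8 and Hspa4 of the HSP70 and HSP110 families, the co-chaperones Dnajb1 and Bag3, the small heat shock protein Hspb1, the HSP90 pair Hsp90aa1 and Hsp90ab1, and the mitochondrial chaperonin pair Hspd1 and Hspe1. All 10 were in the table, each under 1 gene ID. They were chosen by their measured RPKM values in these same libraries, which put some of them above and some below the control, so the knockdown to control difference is given for them as a description, with no test.

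The series held 2 libraries from Med23 knockdown cells, labelled knockdown-1 and knockdown-2, and 1 library from siCtrl cells, labelled wild type. Med23 is a tail subunit of Mediator, a large complex through which transcription factors act on RNA polymerase II. The labels do not say if these 2 libraries stem from separate cultures or separate siRNAs, so their spread may be technical, and they give no time after knockdown. The table's header runs the names of both knockdown columns, siMed23A and siMed23B, together, and does not say what the letters A and B stand for. The words "first" and "second" refer only to the order of the columns. Values are RPKM, a read density scaled to library size and transcript length, which allows levels of different genes to be compared. The 3 libraries had been brought to 1 common distribution, so read depth is unknown, a shift in total RNA is invisible, and fewer cells and less RNA per cell cannot be told apart.

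Heat shock proteins are chaperones that bind unfolded proteins and help them fold, hold or be degraded. HSP70 proteins work in cycles of ATP hydrolysis started by J-domain partners such as Dnajb1 and reset by exchange factors such as Bag3 and Hspa4. HSP90 proteins act later, on signalling proteins and kinases, and the chaperonin of Hspd1 with its lid Hspe1 folds proteins imported into mitochondria. Some members are present in all growing cells and others are induced by heat and misfolded proteins through the transcription factor Hsf1, which binds heat shock elements, inverted repeats of the bases GAA, in their promoters.

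Med23 stood at 1.65 RPKM (first) and 1.61 RPKM (second) after knockdown, against 5.23 RPKM in the siCtrl library, a 3.20-fold lower mean. The difference was -1.24 in log2(RPKM + 1), with an SE of 0.11 (limma, Benjamini-Hochberg adjusted p = 0.00121), and the adjusted p was 0.108 when the lone control was taken to vary 3 times as much as a knockdown library. All 7 melanocyte markers examined were in the table. Tyr, which starts melanin synthesis, was 10.9 and 8.71 RPKM in the knockdown libraries against 82.2 RPKM in the siCtrl library, and Sox10, a lineage factor, 64.2 and 66.8 against 95.8 RPKM. Of 14 markers of other cell types, 10 were not listed in the table, and the 4 that were summed to 12.9 and 13.3 RPKM in the knockdown libraries and 19.1 RPKM in the siCtrl library. The lower sum came from Cd68, at 10.0 and 10.1 RPKM in the knockdown libraries against 16.9 RPKM in the siCtrl library. The other 3 were low in every library and higher after knockdown: Pdgfrb had 2.22 and 2.29 RPKM against 1.90 RPKM, Pdgfra 0.449 and 0.519 RPKM against 0.151 RPKM, and Col1a1 0.2002 and 0.405 RPKM against 0.189 RPKM. Their part in the results was not tested.

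Promoter sequences are shown first because the choice of genes did not use them, and because a heat shock element match was found both in members that were higher and in members that were lower after knockdown. RefSeq windows on GRCm38.p6, from 250 bases before to 50 after each annotated start, were found by symbol for 7 of the 10 members and searched for paired heat shock element repeats, written GAANNTTC or TTCNNGAA. Each of these reads the same on both strands, and matches that overlapped by a shared GAA or TTC were counted separately. Of the 7 members 5 held at least 1 match, Hspa1b, Hspb1, Hspe1, Hspd1 and Bag3, while Dnajb1 and Hspa4 held none. Over all 27025 genes with a window 17.0% held a match. A match is a string of letters and not a measured binding site. In the stretches printed here, which carry the matches in capitals, positions count from 1 at the annotated start and from -1 before it. The first 3 stretches run from -200 to -1, and the Bag3 stretch from 21 to 50.
Hspa1b, chr17:34959239-34959438, minus strand: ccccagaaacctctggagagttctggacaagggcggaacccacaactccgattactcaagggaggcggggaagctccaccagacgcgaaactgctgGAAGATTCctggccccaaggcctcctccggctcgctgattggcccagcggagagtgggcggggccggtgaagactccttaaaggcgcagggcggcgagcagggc
Hspb1, chr5:135887719-135887918, plus strand: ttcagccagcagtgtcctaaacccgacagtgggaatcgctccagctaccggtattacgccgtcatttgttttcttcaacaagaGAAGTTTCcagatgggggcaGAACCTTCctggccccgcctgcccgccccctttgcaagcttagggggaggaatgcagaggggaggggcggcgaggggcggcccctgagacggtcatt
Hspe1, chr1:55087948-55088147, plus strand: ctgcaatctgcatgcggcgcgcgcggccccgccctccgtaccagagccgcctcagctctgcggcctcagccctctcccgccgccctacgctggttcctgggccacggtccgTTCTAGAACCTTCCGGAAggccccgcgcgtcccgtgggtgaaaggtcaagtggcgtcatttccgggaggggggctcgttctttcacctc
Bag3, chr7:128523603-128523632, plus strand: ccaagttctctggatgggaccaGAAGTTTC

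The Hspe1 window held 3 overlapping matches, from -89, -84 and -79, which form the triple repeats TTCNNGAANNTTC and GAANNTTCNNGAA. A triple of either form was present in 0.662% of genes with a window. Hspd1 lies head to head with Hspe1, and 1 of its 2 annotated windows overlapped that of Hspe1 by 285 bases, so both genes carried the same triple on opposite strands. Hspb1 held matches from -117 and -97, Hspa1b held 1 from -104, and Bag3 held 1 from 43, past its start. The Hspa1b window differed from that of its neighbouring copy Hspa1a at 4 of 300 positions and held the same match in it.

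Of the 10 members, 6 exceeded the siCtrl value in both knockdown libraries and 4 were lower in both. Among the 9722 genes kept for testing, whose mean was 1 RPKM or more, 46.6% were higher in both and 44.2% lower in both. All 10 members passed this filter, and none of them passed it through the knockdown libraries alone, since the lowest control value was 1.03 RPKM for Hspb1. The higher members were Hspa1b, Hspa8, Dnajb1, Hspb1, Hsp90ab1 and Hspe1, and the lower ones Hspa4, Bag3, Hsp90aa1 and Hspd1. At least 2-fold in both libraries, 2 members were higher and 0 lower, against 4.97% and 4.76% of all tested genes. Because these values chose the members, the counts describe the set and support nothing further.

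**Figure D1:**
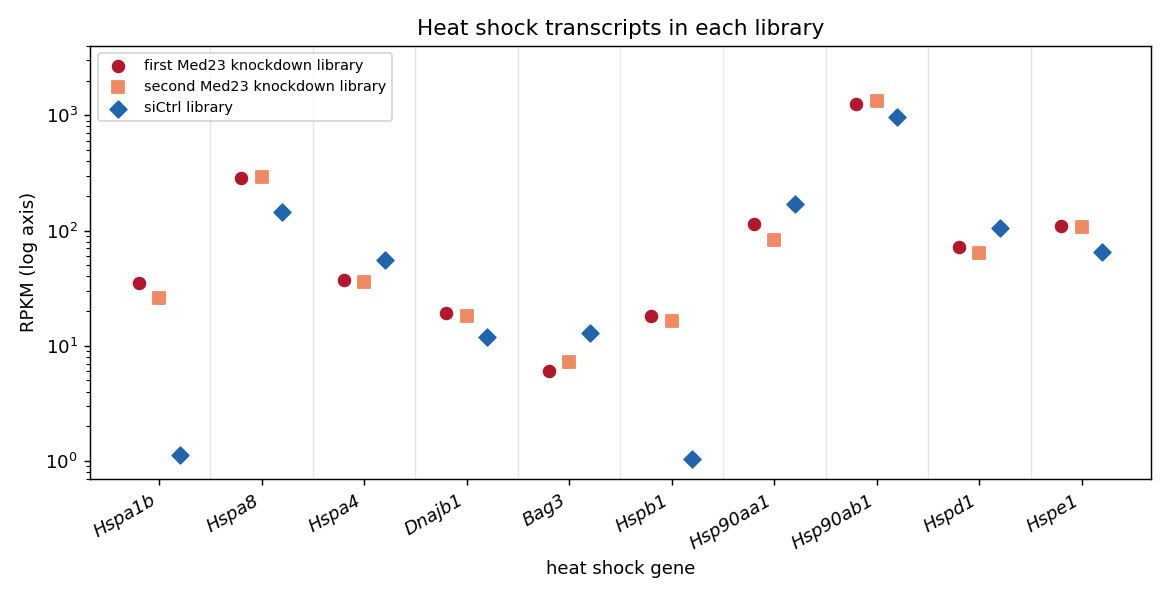
RPKM of the 10 heat shock genes on a log axis, with 1 point per library: the first and the second Med23 knockdown library (circle and square) and the siCtrl library (diamond). Hspa1b and Hspb1 sit near 1 RPKM in the siCtrl library and between 16.2 and 35.2 RPKM in the knockdown libraries, while the knockdown means of the other 8 genes lie between 1.33-fold and 1.98-fold from the control.

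Hspa1b (ENSMUSG00000090877), a stress-inducible cytosolic HSP70, had 35.2 and 26.0 RPKM in the knockdown libraries, against 1.13 RPKM in the siCtrl library. Both knockdown values lay far above the control, at 31.1-fold and 23.0-fold, and the mean was 30.6 ± 6.50 RPKM (SD, n = 2). On the log2(RPKM + 1) scale, which understates the change of genes near 1 RPKM, the ratio was 3.87. In its library's ranking of all 12852 genes Hspa1b stood at percentile 90.7 and 87.5 after knockdown and at 26.5 in the control. The table lists Hspa1b but no row for Hspa1a, a neighbouring gene whose product is nearly the same. The longest open reading frames of the 2 genes share an identical run of 638 bases, so the Hspa1b value may hold reads of Hspa1a and should be read as uncertain between the copies.

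Hspa8 (ENSMUSG00000015656) encodes the constitutive cytosolic HSP70, which works without stress. It measured 284 and 289.6 RPKM in the knockdown libraries and 145 RPKM in the siCtrl library, a 1.98-fold higher mean of 287 ± 4.0 RPKM (SD, n = 2). The 2 knockdown values were close together and clear of the control. The RPKM of Hspa8 exceeded that of Hspa1b 8.07-fold and 11.1-fold in the knockdown libraries and 128-fold in the siCtrl library, so both cytosolic HSP70 genes were higher and the inducible one took a larger part of their sum. That sum was 319 and 316 RPKM after knockdown and 146 RPKM in the control. The longest identical run between the reading frames of Hspa1b and Hspa8 was 23 bases.

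Hspa4 (ENSMUSG00000020361), an HSP110 relative that exchanges nucleotide on HSP70, went the other way. It measured 36.9 and 35.9 RPKM in the knockdown libraries and 55.9 RPKM in the siCtrl library, a 1.54-fold lower mean. Its log2 ratio was -0.61, and the knockdown libraries differed by -0.04, second minus first, on that scale.

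Dnajb1 (ENSMUSG00000005483), the J-domain protein that delivers clients to HSP70 and is itself induced by heat, had 19.2 and 18.2 RPKM in the knockdown libraries and 11.8 RPKM in the siCtrl library, a 1.58-fold higher mean. Bag3 (ENSMUSG00000030847), an HSP70 exchange factor that links HSP70 to small heat shock proteins and selective autophagy, had 6.02 and 7.19 RPKM in the knockdown libraries against 13.0 RPKM in the siCtrl library. Its mean was 1.97-fold lower, with a log2 ratio of -0.88. Bag3 and Dnajb1 stood close to each other in the control and apart after knockdown. Both knockdown values lay below the control for Bag3 and above it for Dnajb1, as for 44.2% and 46.6% of all tested genes.

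Hspb1 (ENSMUSG00000004951), a small heat shock protein that holds unfolded proteins and binds actin filaments, had 18.0 and 16.2 RPKM in the knockdown libraries and 1.03 RPKM in the siCtrl library. The mean of 17.1 ± 1.21 RPKM (SD, n = 2) was 16.6-fold higher, and the log2 ratio was 3.15. With Hspa1b it was 1 of the 2 members that were nearly silent in the control, at percentile 25.3 of all genes, and it stood at 81.9 and 80.1 after knockdown. Adding 0.1 RPKM in place of 1 before taking logs gave 3.92 for Hspb1 and 4.62 for Hspa1b, so the size of these ratios, unlike their sign, depends on how values near 1 RPKM are treated. With no read counts, no counting interval can be given for the low control values.

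The HSP90 pair split. Hsp90ab1 (ENSMUSG00000023944), the constitutive form and the most abundant member in every library, had 1249 and 1333 RPKM in the knockdown libraries and 974 RPKM in the siCtrl library, a 1.33-fold higher mean. Hsp90aa1 (ENSMUSG00000021270), the form more responsive to stress, had 113 and 82.7 RPKM in the knockdown libraries and 171 RPKM in the siCtrl library, a 1.74-fold lower mean of 97.8 ± 21.4 RPKM (SD, n = 2). The ratio of Hsp90ab1 to Hsp90aa1 within a library was 11.1 and 16.1 after knockdown and 5.71 in the control. The sum of the pair was 1362 and 1416 RPKM in the knockdown libraries and 1145 RPKM in the siCtrl library, since Hsp90ab1 alone made up between 63.1% and 67.3% of the RPKM of all 10 members. The reading frames share identical runs of at most 33 bases.

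The mitochondrial chaperonin pair, whose genes share a promoter region, split as well. Hspd1 (ENSMUSG00000025980), the chaperonin ring subunit, had 72.5 and 64.4 RPKM in the knockdown libraries and 105 RPKM in the siCtrl library, a 1.54-fold lower mean of 68.5 ± 5.75 RPKM (SD, n = 2). Hspe1 (ENSMUSG00000073676), the lid of that ring, had 109 and 107 RPKM in the knockdown libraries and 65.7 RPKM in the siCtrl library, a 1.64-fold higher mean of 108 ± 1.77 RPKM (SD, n = 2). Hspe1 exceeded Hspd1 by 1.51-fold and 1.66-fold after knockdown and was 0.624 times Hspd1 in the control, so the order of the 2 genes turned round. GENCODE M21 annotates 5 pseudogenes named for Hspd1 and 6 named for Hspe1, and reads shared with such copies would make both levels less certain. They were counted by name alone, so pseudogenes under other names are missed, for this pair and for the other members.

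**Figure D2:**
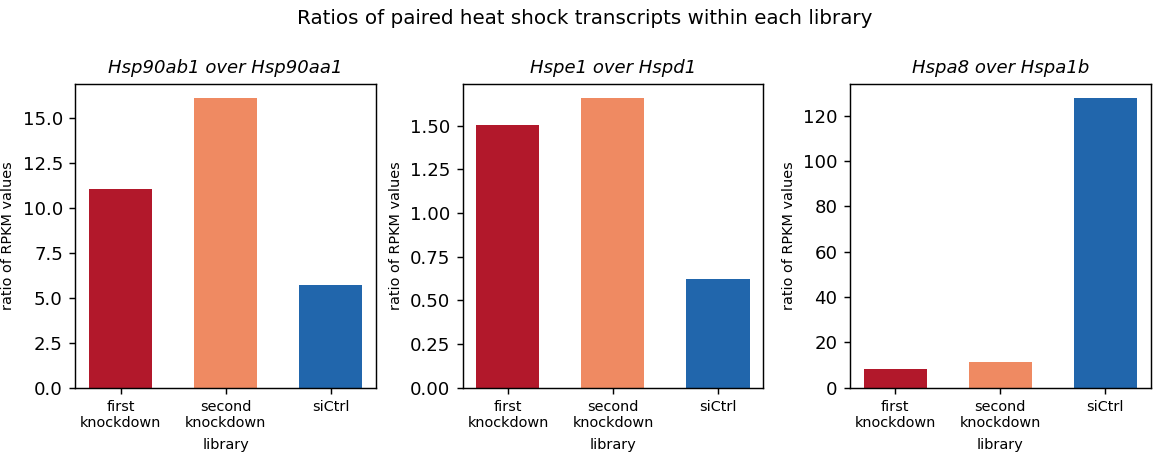
Ratio of the RPKM of 2 related genes within each library, for the HSP90 pair, the mitochondrial chaperonin pair and the cytosolic HSP70 pair, with bars for the first and second Med23 knockdown library and the siCtrl library on linear axes from 0. Hsp90ab1 over Hsp90aa1 is 11.1 and 16.1 against 5.71, Hspe1 over Hspd1 is 1.51 and 1.66 against 0.624, and Hspa8 over Hspa1b is 8.07 and 11.1 against 128.

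The order of levels changed below the top. After knockdown it ran from Hsp90ab1 through Hspa8, Hspe1, Hsp90aa1, Hspd1, Hspa4, Hspa1b, Dnajb1 and Hspb1 to Bag3, by the mean of the 2 libraries. Neighbours whose means differed by less than the larger of their SDs were Hspe1 with Hsp90aa1 and Hspa4 with Hspa1b. In the control the order was Hsp90ab1, Hsp90aa1, Hspa8, Hspd1, Hspe1, Hspa4, Bag3, Dnajb1, Hspa1b and Hspb1, where no spread can be given. The 10 members together held 0.760% and 0.775% of the summed RPKM in the knockdown libraries and 0.604% in the siCtrl library.

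The difference between the knockdown libraries does not involve the control and was not used to choose the members. Over all tested genes the second library differed from the first by a median of 0.09 and a 90th percentile of 0.25 in absolute log2(RPKM + 1). Hsp90aa1 and Hspa1b were 0.44 and 0.42 lower in the second library, more than 97.5% and 97.0% of genes in absolute size, and Bag3 was 0.22 higher, more than 87.0% of genes. Hspa8, Hspe1 and Hspa4 differed by 0.03, -0.03 and -0.04. Hsp90aa1, Hspa1b and Bag3 were thus the members least alike between the knockdown libraries. Across 9614 genes this difference went with GC content (Spearman 0.331, a description over genes that share the same libraries), and transcript GC was 43.7% for Hsp90aa1, 58.1% for Hspa1b and 56.1% for Bag3. Its part in these differences was not tested.

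Transcript length also moved with the knockdown to control ratio. Length and GC content are those of the longest annotated transcript of a gene, which need not be the one expressed here. Across 9614 genes with an annotated length the log2 ratio went down with length (Spearman -0.383) and up with GC content (0.203), again as a description. Hspe1 and Hspb1 have the shortest transcripts among the members, 774 and 930 bases, against a median of 3085 bases over tested genes, and Hspa4 has the longest at 4618 bases. After a correction of the ratios for length and GC content, chosen after seeing the data, all 6 higher members remained above and all 4 lower members below the control. The log2 ratio of Hspe1 was 0.32 after the correction and 0.71 before it. For Hspb1 it was 2.76 after and 3.15 before, for Hspa4 -0.43 after and -0.61 before, and for Hspd1 -0.69 after and -0.62 before. Bag3 had -1.01 after and -0.88 before. The ratios of Hspd1 and Bag3 thus grew in size, and those of the other members shrank. Hspd1 and Hspe1 kept opposite signs.

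**Figure D3:**
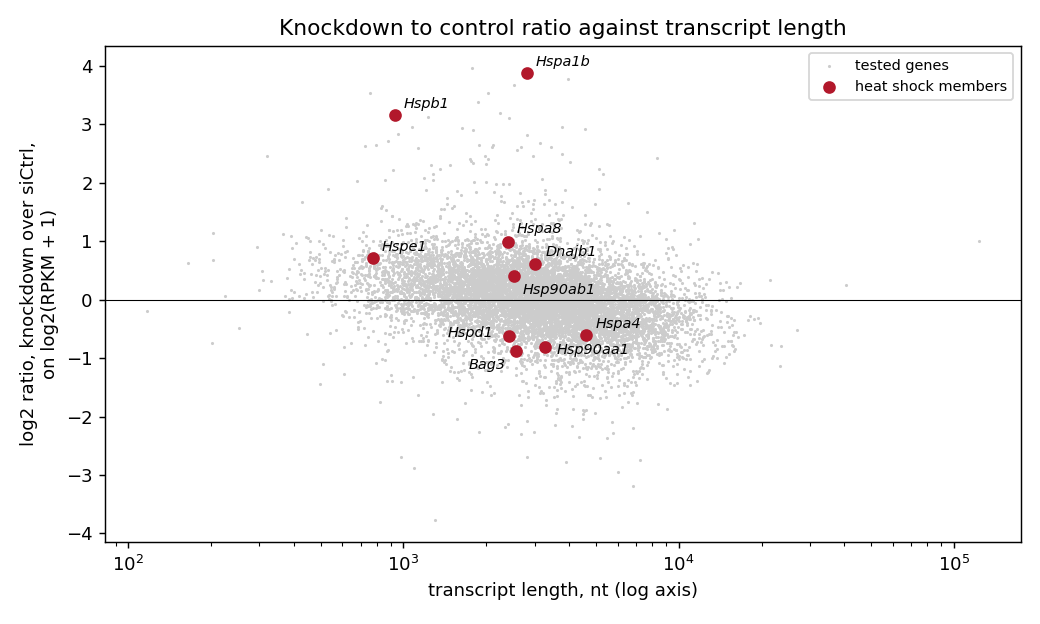
Log2 ratio of knockdown (mean of 2 libraries) over siCtrl on the log2(RPKM + 1) scale against transcript length in bases (log axis) for 9614 tested genes in grey, with the 10 heat shock genes in red. The grey cloud slopes down with length, and Hspe1 (774 bases) and Hspb1 (930 bases) lie at its short end, while Hspa1b (2803 bases) lies at 3.87.

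The other chaperone genes were read from lists of textbook roles, with the limma fit over all 9722 tested genes, of which 50.3% passed, 26.3% higher and 24% lower. This fit takes its spread from the 2 knockdown libraries and from all genes, and assumes that the lone control varies like them. Across all lists 85 genes were tested, of which 21 rose (24.7%), 25 fell (29.4%) and 39 did not pass. The balance depended on the scaling: 25 rose and 21 fell with rescaled libraries (2993 and 2024 among all genes), and 18 rose and 32 fell after length and GC correction (2548 and 2568 among all genes). Their median log2 ratio was -0.06, against 0.01 for all tested genes. With the control taken to vary 3 times as much, 1 of the 85 rose, Ubb, and 1 fell, Hspa9.

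Among genes listed as small heat shock proteins other than Hspb1, of 5 tested, 4 rose and 1, Hspb8, did not pass. Their median log2 ratio was 0.52. The 4 were Hspb6, Hspb2, Cryab and Hspb11, of which Hspb11 was listed by its name. Hspb6, a small heat shock protein best known from muscle, had 35.8 and 40.6 RPKM in the knockdown libraries and 13.9 RPKM in the siCtrl library, a log2 ratio of 1.39 (limma adjusted p = 0.000666). Hspb2 had 88.3 and 95.9 RPKM against 45.5 RPKM, and Cryab, the alpha-crystallin chain that prevents aggregation, 207 and 216 RPKM against 147 RPKM. These 2 genes are also head-to-head neighbours, and both rose. Length and GC correction left 3 of the 4 called, without Hspb11 (limma adjusted p = 0.191), and brought the median to 0.21. With the larger control spread 0 of the 5 were called. Hspb7 and Hspb9 stayed under 1 RPKM in every library.

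Among HSP70 and HSP110 relatives, 4 of which were tested, 1 rose, 2 fell and Hspa2 did not pass, and the median log2 ratio was -0.25. Hsph1, a heat-induced HSP110, had 7.59 and 7.24 RPKM in the knockdown libraries and 4.73 RPKM in the siCtrl library (log2 ratio 0.55, limma adjusted p = 0.00947). Hspa13 fell to 5.32 and 5.22 RPKM in the knockdown libraries, against 10.3 RPKM in the siCtrl library, and Hspa4l, the closest relative of Hspa4, fell with a log2 ratio of -0.55. The fall of Hspa4l, whose longest annotated transcript has 9479 bases, was not called after length and GC correction (log2 ratio -0.10, limma adjusted p = 0.467).

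J-domain proteins, the partners of HSP70 to which Dnajb1 belongs, went both ways: 4 of 16 rose, 5 fell and the other 7 missed the threshold, with a median of 0.11. Among all tested genes 26.3% rose and 24% fell, near the 25% and 31.25% of this list. Dnajb6, which suppresses protein aggregation, had 11.6 and 11.3 RPKM in the knockdown libraries and 5.95 RPKM in the siCtrl library (log2 ratio 0.84, limma adjusted p = 0.00229). Dnajb12, anchored in the membrane of the endoplasmic reticulum, had 2.13 and 1.94 RPKM against 5.14 RPKM, and Dnajc13, which acts on endosomes, 4.23 and 3.81 RPKM against 8.30 RPKM. Of 8 BAG proteins and HSP70 cofactors 4 fell, 1 rose and 3 were not past the test, with a median of -0.30, and 4 fell and 0 rose after length and GC correction. Bag2, which inhibits the ligase Stub1, had 2.002 and 2.05 RPKM in the knockdown libraries and 3.97 RPKM in the siCtrl library. Stub1 itself fell with a log2 ratio of -0.57, and Bag4 with -0.51.

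HSP90 cochaperones showed 2 rises and 6 falls among 17 tested genes, with 9 not past the test and a median of -0.13, and 4 rises and 8 falls after length and GC correction. Fkbp4, which joins HSP90 to steroid receptors, had 55.8 and 55.4 RPKM in the knockdown libraries and 82.3 RPKM in the siCtrl library (log2 ratio -0.56, limma adjusted p = 0.00215). Ttc4 fell with a log2 ratio of -0.99, while Sugt1, which acts with HSP90 at the kinetochore, rose with 0.62. Of the 13 tested subunits of the CCT chaperonin, which folds actin and tubulin, and of its partner prefoldin, 3 rose, 4 fell and 6 did not pass, with a median of 0.07. The prefoldin subunits Pfdn5 and Pfdn4 rose with log2 ratios of 0.67 and 0.46, and Cct8 fell with -0.37. Their median was -0.03 after length and GC correction.

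In mitochondria 2 of 14 tested chaperones and proteases rose, 3 fell and 9 did not pass, with a median of -0.17, and 7 fell and 1 rose after length and GC correction. Hspa9, the HSP70 of the mitochondrial matrix, which works ahead of the chaperonin, fell to 245 and 251 RPKM in the knockdown libraries, against 520.1 RPKM in the siCtrl library. Its log2 ratio was -1.07 (limma adjusted p = 0.000200), and it was also called with the larger control spread (adjusted p = 0.0257). Lonp1, the matrix protease, had 123 and 137 RPKM in the knockdown libraries and 257 RPKM in the siCtrl library, a log2 ratio of -0.98. Trap1, the mitochondrial HSP90, had 33.4 and 33.5 RPKM against 38.0 RPKM and did not pass (limma adjusted p = 0.0884), but was called lower after length and GC correction (log2 ratio -0.32, limma adjusted p = 0.00694). Hscb, a J-domain protein of iron-sulfur cluster assembly, rose with a log2 ratio of 0.59, and with length and GC correction its adjusted p was 0.0674.

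**Figure D4:**
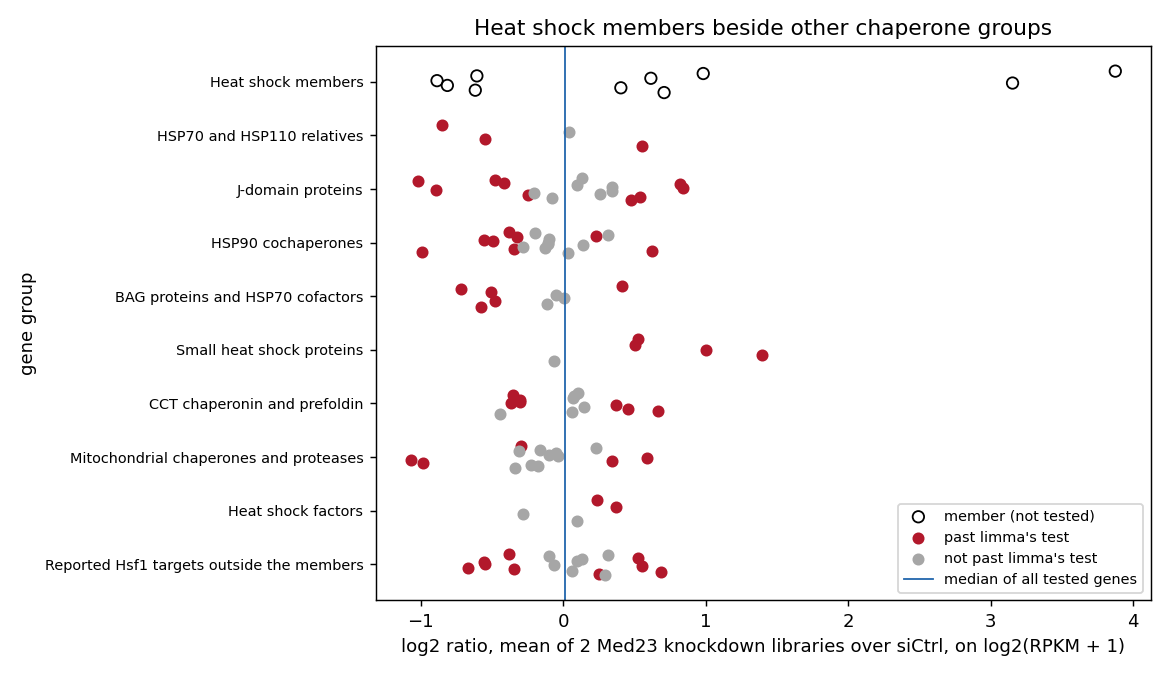
Log2 ratio of knockdown (mean of 2 libraries) over siCtrl on the log2(RPKM + 1) scale for the 10 heat shock members (open circles, not tested) and for the genes of 9 chaperone lists (red where past limma's test, grey where not), with a line at the median of all tested genes, 0.01. Hspa1b and Hspb1 lie at 3.87 and 3.15, and every list gene lies between -1.07 and 1.39.

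Transcripts of the heat shock factors moved by small amounts. Hsf1, the main activator of heat shock genes, had 15.6 and 14.5 RPKM in the knockdown libraries and 11.4 RPKM in the siCtrl library (log2 ratio 0.37, limma adjusted p = 0.0242), with an adjusted p = 0.172 after length and GC correction. Hsbp1, which binds and restrains Hsf1, rose with a log2 ratio of 0.24, and had -0.01 after the correction. Hsf2 had 7.41 and 6.93 RPKM against 8.93 RPKM and did not pass (limma adjusted p = 0.0707). Of the 4 tested factors 2 rose and 0 fell, with a median of 0.17, and after the correction 0 rose and 1, Hsf2, fell (limma adjusted p = 0.0481), with a median of -0.08. These values are transcript levels, while Hsf1 is known to be controlled mainly at the protein level.

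Reported Hsf1 targets outside the members, a list that shares genes with those above, went both ways: 4 of 16 rose, 5 fell and the other 7 missed the threshold, with a median of 0.08. These shares, 25% and 31.25%, lay near the 26.3% and 24% of all tested genes. Ubb, a polyubiquitin gene, had 530.0 and 526 RPKM in the knockdown libraries and 328 RPKM in the siCtrl library (log2 ratio 0.68, limma adjusted p = 0.000327). Sqstm1, an autophagy receptor, had 257 and 282 RPKM against 429 RPKM, a log2 ratio of -0.67. Dnaja1, Dnajb4 and Chordc1, further targets named after their values were seen, did not pass. After length and GC correction 6 of the 16 rose and 4 fell, with Dnaja1 (log2 ratio 0.44, limma adjusted p = 0.00366) and Chordc1 (0.30, limma adjusted p = 0.0429) among those that rose. The log2 ratio of Chordc1 was -0.10 before the correction.

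Over the 2 log2 ratios to the shared control, the non-member genes nearest to Hspa1b among the 9722 tested were Usp18, Oas2 and Gbp2, at Euclidean distances of 0.25, 0.26 and 0.42. All 3 are interferon-induced genes, with Gbp2 at 25.2 and 25.1 RPKM in the knockdown libraries and 1.07 RPKM in the siCtrl library. Usp18 and Oas2 had 0.496 and 0.166 RPKM in the siCtrl library, under the limit of 1 RPKM set for the mean. They were among the tested genes because of their knockdown values, 23.1 and 21.3 RPKM for Usp18 and 15.6 and 14.3 RPKM for Oas2. The choice of tested genes thus favoured such neighbours. Nearest to Hsp90aa1 were Phf3, Rictor and Suz12, at 0.02, 0.03 and 0.03, which were likewise lower in the second knockdown library than in the first. Rictor had 12.0 and 8.72 RPKM in the knockdown libraries and 18.6 RPKM in the siCtrl library. Likeness over 3 libraries that share 1 control is a weak description and says nothing of shared control.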

How the data were processed

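RNA sequencing values came from 2 Med23 knockdown libraries and 1 siCtrl library of B16F10 cells. The deposited table holds RPKM made by the authors. TopHat, Cufflinks, CASAVA 1.4 and the build mm9 are named, without roles, per the submitters' processing notes. The annotation, gene filter and normalization are not given in the sources used here. When each column was sorted, 95.3% of positions matched across the 3 columns within a relative tolerance of 1e-09 and none differed by more than 0.682%, as after quantile normalization. Depth is therefore unknown, and no value was 0.

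Values were analysed as log2(RPKM + 1) for those 9722 of 12852 genes whose mean was 1 RPKM or more. limma 3.58.1 in R 4.3.3 (lmFit, eBayes with intensity trend, Benjamini-Hochberg threshold 0.05) took its 1 residual degree of freedom from the knockdown pair and had 4.37 prior degrees of freedom. The members were not tested, and members and lists were chosen with earlier results of these data known. Named genes were the members, Med23, Hspa1a, Hspa9, Trap1, Hsf1, Hsf2, up to 3 called genes per list with the largest smaller change of both libraries, and the 3 genes nearest in pattern to Hspa1b and to Hsp90aa1. Hspa14, on 2 gene IDs, was left out of its list. Melanocyte and other-cell markers were read as levels. GENCODE M21 gave transcript length and GC for 98.1% of genes, by gene ID and without coordinates, with a lowess correction (statsmodels 0.14.6, fraction 0.3). They were taken from the longest protein-coding transcript of each gene, or the longest of any type where none is coding. Promoter windows came from RefSeq on GRCm38.p6, another build than mm9, matched by symbol. The alternatives tried were no filter, a minimum of 5 RPKM, a pseudocount of 0.1, libraries rescaled without ribosomal protein genes, no intensity trend, a control SD 3 times larger, fold limits of 1.5 and 3, each knockdown library left out, and the length and GC correction. Python 3.11.15, pandas 2.3.3, numpy 2.4.6 and matplotlib 3.10.9 were used.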

Additional observations from a re-analysis of the deposited data

How the results depend on the processing

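The sign of all 10 members was kept under every alternative run on them (60 recomputed values), with 6 above and 4 below the control each time. Both knockdown values of each member lay on 1 side of the control, and these values chose the members. The filters, the pseudocount and leaving out a library could therefore not turn a sign. The rescaling multiplied the siCtrl library by 0.969 and the knockdown libraries by 1.02 and 1.01. That was too little to turn a sign at the folds of these members. Only the length and GC correction could have done so. Leaving out a knockdown library left 1 library against 1 and so gave values without a limma test, and genes at least 2-fold higher then numbered 569 to 576 and 2-fold lower 606 to 662, against 483 and 463 in both libraries. No paired analysis was possible because there was 1 control library. With a control SD 3 times that of a knockdown library, limma called 118 genes higher and 77 lower, against 2556 and 2332, and 1 higher and 1 lower among the other chaperone genes, against 21 and 25. A minimum mean of 5 RPKM gave 1494 genes lower by limma, and 238 higher and 244 lower at 2-fold, where fewer genes were tested. No filter gave 837 higher and 863 lower at 2-fold. A fold limit of 1.5 gave 1420 and 1315, and a limit of 3 gave 154 and 114. List medians kept their sign in 60 of 63 recomputed values: HSP70 and HSP110 relatives stood at 0.0390 with the minimum of 5 RPKM, and CCT with prefoldin and the heat shock factors at -0.0349 and -0.0806 after length and GC correction. Rescaling moved the median of all genes by 0.06. Unknown depth limits what the low control values of Hspa1b and Hspb1 can show.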
